A study of Mus musculus with 15 samples.

Results

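The genes described here are 48 genes of mitosis, out of 38172 gene symbols in a table of TPM values from mouse brain tumours. They were chosen by their symbols as a named list, with earlier results of these data known. TPM is the read density of a gene as a share of all read density in its library. All 48 were in the table, and all 48 passed the filter on low values of at least 1 TPM in at least 3 libraries, which 19390 symbols passed. The tumours were a model of IDH-mutant low-grade glioma, made by injecting DF-1 cells, a chicken fibroblast line that is used to release avian retroviruses, into the brains of nestin-TVA mice (written nesin-TVA by the submitters), in which cells that express nestin carry the receptor for these viruses. DF-1 cells with R132H-mutant IDH were given in a 1:1 mixture with others that carried the growth factor PDGFB. All 4 groups, controls included, are labelled IDH-mutant, so that no tumour without the mutation was compared. The brains were imaged by MRI on day 28, treatment lasted 9 days, and the tumours were taken on day 37.

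The 15 libraries of total RNA fell into 4 groups. Mice of the anti-PD1 group (n = 4) received 1 mg of the antibody in 100 µl of PBS by intraperitoneal injection several days apart, and the labels name no injection of the vehicle in this group. Anti-PD1 blocks PD-1, an inhibitory receptor of T cells. Mice of the vorinostat group (n = 4) received 1 mg of this histone deacetylase inhibitor in 100 µl of vehicle daily, by the same route. The combination group (n = 4) is labelled with both agents, and controls (n = 3) received a placebo of the vehicle, with 10% DMSO, 45% PEG-300 and 5% Tween-20 in water. The labels give no strain, sex or age, and they do not say that libraries of a group came from separate animals, so that p-values measure the spread between these samples only.

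Mitosis genes encode the machinery that a dividing cell builds shortly before it separates its chromosomes. Cyclin B with the kinase Cdk1 starts mitosis, Aurora and Polo-like kinases build the spindle, the kinetochore ties chromosomes to it, and the spindle checkpoint holds the cell until every chromosome is attached. The anaphase-promoting complex then ends the division by destroying cyclin B. Most of these genes are transcribed together late in the cell cycle and kept silent in resting cells such as neurons, and their summed transcripts are used as a measure of how many cells of a glioma are dividing. In bulk tissue, fewer dividing cells and less of their RNA per cell cannot be told apart.

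Depth, as whole reads worked back from TPM, ran between 82.2 M reads in combination library 2 and 163.5 M in control library 3, and no member had fewer than 173 reads or more than 57587 in any library. The authors' TPM divides by the whole span of a gene, introns included, so levels are compared between libraries and not between genes. The samples are labelled as low-grade glioma cells. The oligodendrocyte lineage factor Olig2 lay between 214 and 1756 TPM and the growth factor receptor Pdgfra between 52.6 and 621 TPM in every library, and the neuronal synapse gene Snap25 (40.7 to 254 TPM) and the microglial gene C1qa (286 to 539 TPM) were present too. The libraries are therefore described as tumour tissue with surrounding brain. Brain content is the library mean of log2(TPM + 1) of 5 neuronal genes, Snap25, Syt1, Gad1, Gad2 and Grin1. It was 5.82, 6.12, 5.19 and 5.50 in anti-PD1 libraries 1 to 4, 5.14, 4.81, 3.90 and 5.38 in vorinostat libraries, 4.82, 5.33, 4.56 and 4.28 in combination libraries and 4.73, 4.34 and 4.33 in control libraries 1 to 3. Every anti-PD1 library lay above every control in brain content. Combination library 2 stood apart from its group. It held the lowest TPM of the 4 combination libraries in 47 of the 48 members, and the median of the other 3 was 5.10 times its own in the median member. Where leaving it out moved a result by over 1.5 times or turned its sign, both values are given.

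The promoters of mitosis genes are shown first, since they are what the members have in common that was not used to choose them. The RefSeq promoter table for GRCm38.p6 had 43 starts for 40 of the 48 members. Ccna2, Pbk, Spc24, Aurkb, Incenp, Kif20a, Tpx2 and Dlgap5 had no entry. The letters TTTGAA, the core of the cell cycle genes homology region bound by the DREAM and B-Myb-MuvB-Foxm1 complexes, were searched on both strands in the 250 bases before and 50 after each start. They were present in 72.1% of the members' promoters, against 17.9% of all 32851 promoters in the table. Within 50 bases of the start the shares were 65.1% and 4.9%. The variant TTTAAA was in 20.9% of the members' promoters and 13.2% of all. The box CCAAT, bound by NF-Y, was in 74.4% and 37.4%, and both TTTGAA and CCAAT in 60.5% and 7.0%. Of the E2F site letters, TTCCCGC was in none of the members' promoters and 4.6% of all, and TTGGCGC was in 16.3% and 2.5%. Matches of different motifs overlapped in 4 cases. These are matches of letters, and a window without a match says nothing about the factor.

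**Figure D1:**
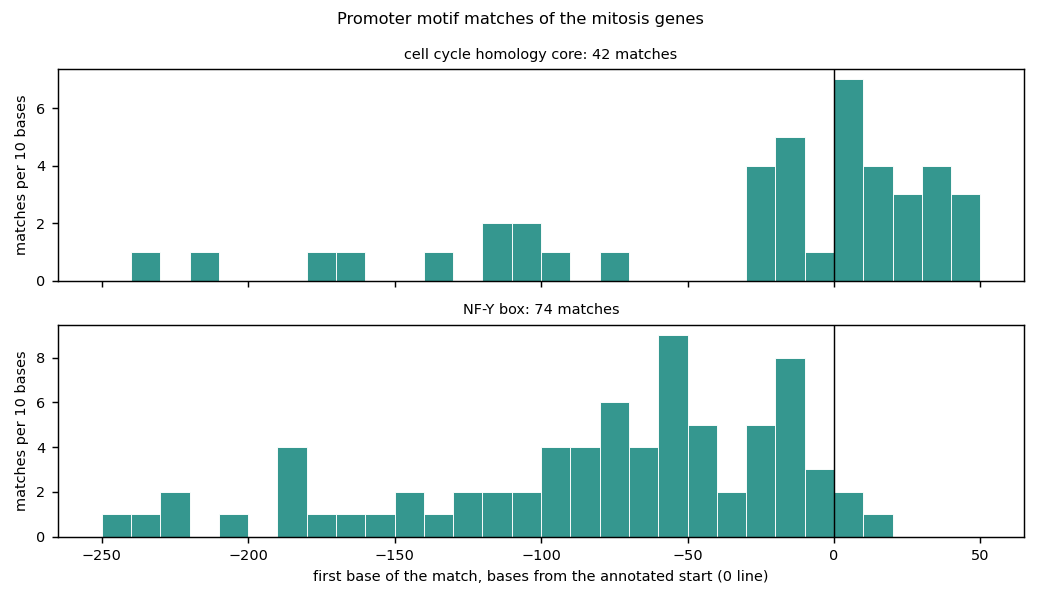
Position of the first base of each match in the promoters of the mitosis genes, in bases from the RefSeq start (horizontal axis), counted in bins of 10 bases (vertical axis). Of 42 matches of TTTGAA, 31 lay within 50 bases of the start, while of 74 CCAAT matches 43 lay 120 to 20 bases before it.

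Windows of 165 bases, from 150 before the start to 15 after it, are given for 9 members in the 5′ to 3′ direction, with matches of either form of the core and of the NF-Y box, on both strands, in capitals. The first group has a form of the core in the printed window and holds cyclin, kinase and checkpoint genes together with the chromosome genes Top2a and Mki67. The matches of Mki67 lie farther upstream, with first bases at -116 and -98 from the start, and the other 6 have one within 50 bases of it. The windows lie at chr13:100786472-100786636, minus strand (Ccnb1), chr9:70421540-70421704, minus strand (Ccnb2), chr10:69352898-69353062, minus strand (Cdk1), chr4:118437329-118437493, minus strand (Cdc20), chr7:122159285-122159449, plus strand (Plk1), chr11:99024175-99024339, minus strand (Top2a) and chr7:135716365-135716529, minus strand (Mki67).
Ccnb1: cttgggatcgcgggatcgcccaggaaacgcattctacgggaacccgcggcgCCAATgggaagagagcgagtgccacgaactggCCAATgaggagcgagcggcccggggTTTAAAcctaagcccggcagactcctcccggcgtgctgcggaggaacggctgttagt
Ccnb2: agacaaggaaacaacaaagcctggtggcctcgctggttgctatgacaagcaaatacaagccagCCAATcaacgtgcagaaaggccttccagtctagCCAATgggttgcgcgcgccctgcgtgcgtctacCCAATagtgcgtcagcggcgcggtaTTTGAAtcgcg
Cdk1: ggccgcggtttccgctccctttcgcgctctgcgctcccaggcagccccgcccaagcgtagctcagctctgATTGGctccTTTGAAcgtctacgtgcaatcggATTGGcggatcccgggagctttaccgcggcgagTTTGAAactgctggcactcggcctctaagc
Cdc20: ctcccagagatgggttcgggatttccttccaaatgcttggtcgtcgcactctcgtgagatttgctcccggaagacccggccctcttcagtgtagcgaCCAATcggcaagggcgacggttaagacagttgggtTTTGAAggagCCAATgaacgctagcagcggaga
Plk1: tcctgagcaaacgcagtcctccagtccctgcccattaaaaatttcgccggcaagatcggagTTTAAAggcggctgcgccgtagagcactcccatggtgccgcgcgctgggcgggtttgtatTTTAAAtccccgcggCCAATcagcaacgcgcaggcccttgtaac
Top2a: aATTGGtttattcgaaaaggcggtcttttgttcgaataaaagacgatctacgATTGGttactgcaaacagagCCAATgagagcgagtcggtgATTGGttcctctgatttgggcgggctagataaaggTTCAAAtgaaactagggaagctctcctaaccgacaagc
Mki67: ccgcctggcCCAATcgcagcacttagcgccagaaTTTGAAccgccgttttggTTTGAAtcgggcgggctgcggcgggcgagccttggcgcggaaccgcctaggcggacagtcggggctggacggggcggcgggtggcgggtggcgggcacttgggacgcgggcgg
Nek2 (chr1:191821323-191821487, plus strand) and Psrc1 (chr3:108383654-108383818, plus strand) are printed because they are among the members that passed the test of anti-PD1 against control below. Their windows hold CCAAT and neither form of the core, and a link between these motifs and the changes was not tested.
Nek2: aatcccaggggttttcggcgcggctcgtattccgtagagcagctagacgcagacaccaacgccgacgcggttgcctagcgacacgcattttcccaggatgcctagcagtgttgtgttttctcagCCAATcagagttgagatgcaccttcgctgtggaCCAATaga
Psrc1: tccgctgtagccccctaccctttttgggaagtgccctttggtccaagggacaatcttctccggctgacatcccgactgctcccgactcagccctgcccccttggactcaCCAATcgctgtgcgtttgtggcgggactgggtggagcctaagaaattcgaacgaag
Across the whole searched window 8 of the 40 members had neither TTTGAA nor TTTAAA. They were Bub1, Kif18a, Mad2l1, Melk, Nek2, Nuf2, Nusap1 and Psrc1.

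The members moved almost as 1 unit across the 15 libraries. The mean of log2(TPM + 1) over the 48 members was 3.31, 2.29, 3.56 and 3.22 in anti-PD1 libraries 1 to 4, 3.59, 4.49, 4.84 and 3.74 in vorinostat libraries, 4.004, 2.15, 4.46 and 3.92 in combination libraries and 4.42, 4.22 and 4.78 in controls. Vorinostat library 3 held the highest TPM of all libraries in 37 members and control library 3 in 10. Combination library 2 held the lowest in 28 members and anti-PD1 library 2 in 19. Anln was the 1 member outside this order, with its lowest TPM in vorinostat library 3 and its highest in control library 1.

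**Figure D2:**
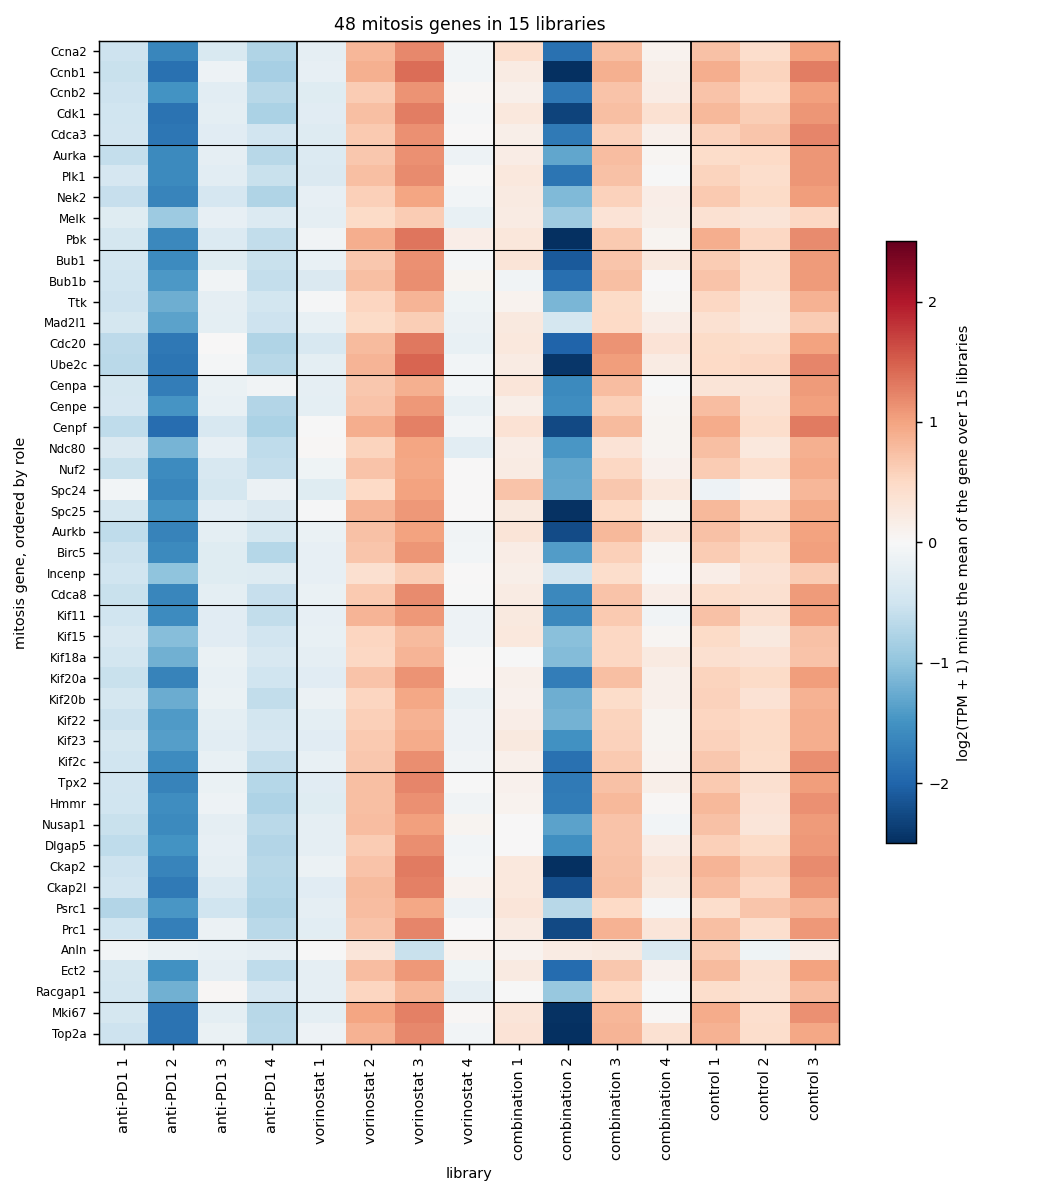
log2(TPM + 1) of each of the 48 members minus its mean over the 15 libraries, by library (columns) and by gene in order of role (rows, with lines between roles). Colours stop at 2.5 in either direction. The columns of anti-PD1 library 2 and combination library 2 are blue in nearly every row, those of vorinostat library 3 and control library 3 are red, and the row of Anln is pale throughout.

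The comparison of anti-PD1 with control sets the antibody given alone against placebo. Controls received the vehicle, and the labels name none in the anti-PD1 group. An effect of the vehicle therefore cannot be told apart here or in other comparisons with this group, the interaction included. The members were lower with anti-PD1, and the direction was shared by all 48, but few differences passed the test across all genes. By limma with 1 mean per group over all 15 libraries, 4 of the 48 members fell with anti-PD1, 0 rose and 44 did not pass an adjusted p of 0.05, beside 3.52% of all tested genes that fell and 1.77% that rose. Their differences in log2(TPM + 1), anti-PD1 minus control, had a median of -1.44, against -0.14 for all tested genes, and ran from -1.83 (Cenpf) to -0.40 (Anln). At an unadjusted p of 0.05, 46 members were lower, beside 25.2% of all genes. This count came to 26 when anti-PD1 library 2 was left out and to 24 when control library 3 was (shares of all genes not given here). In 46 members every anti-PD1 library was below every control, beside 20.5% of all genes, the exceptions being Spc24 and Anln. Inside the threshold lay adjusted p-values of 0.035 to 0.0481, and the nearest outside it was 0.055 for Nuf2. The count depended on single libraries. It was 43 without combination library 2, beside 6.91% of all genes, although that library enters the shared estimate of the spread and no mean of this comparison. It was 23 without anti-PD1 library 3 (share of all genes not given here) and 0 without any other anti-PD1 library or any of the 3 controls. Without vorinostat library 3 it was 7, and without vorinostat library 1 or 2 or combination library 1, 3 or 4 it was 1 or 2 (shares of all genes not given here). By limma on TPM rescaled by median of ratios, which moved the median of all genes by 0.13 in this comparison, on the 7 libraries of these 2 groups alone, or by voom on recovered reads, 1 member passed, Psrc1, and without the filter on low values 0. The median of the 48 differences moved less, between -1.62 and -1.17 whichever library was left out.

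The 4 members that fell were Psrc1, Nek2, Incenp and Mad2l1. Psrc1, which encodes a microtubule-binding protein of the spindle (chr3:108383839-108388231, plus strand), had 19.6, 11.5, 23.2 and 19.2 TPM in anti-PD1 libraries 1 to 4, against 45.1, 54.2 and 60.7 TPM in control libraries 1 to 3. It had 28.1, 56.99, 66.0003 and 30.4 TPM with vorinostat and 41.3, 20.02, 47.3 and 32.4 TPM with the combination. Every anti-PD1 library was below every control for Psrc1, and anti-PD1 library 3, the highest of its group, exceeded combination library 2. Psrc1 fell by 1.52 (SE 0.34, adjusted p = 0.035). Nek2 (chr1:191821444-191833050, plus strand) encodes a kinase that separates the centrosomes before mitosis, and had 8.76, 3.63, 9.91 and 7.62 TPM with anti-PD1, against 22.005, 19.3 and 28.96 TPM in controls. Vorinostat libraries had 11.7, 21.1, 27.8 and 12.96 TPM and combination libraries 16.1, 5.77, 20.8 and 15.4 TPM. The anti-PD1 and control libraries did not overlap for Nek2, and anti-PD1 libraries also lay below all 4 vorinostat libraries. Nek2 fell by 1.58 (SE 0.40, adjusted p = 0.0456).

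Incenp (chr19:9872296-9899551, minus strand), the scaffold of the chromosomal passenger complex, had 10.1, 6.78, 11.7 and 11.6 TPM with anti-PD1, against 16.7, 19.1 and 23.4 TPM in controls. It had 12.6, 19.8, 22.98 and 14.8 TPM with vorinostat and 16.5, 10.2, 20.3 and 14.9 TPM with the combination. The anti-PD1 libraries lay below all controls and all vorinostat libraries, while combination library 2 lay among them. Incenp fell by 0.92 (SE 0.25, adjusted p = 0.0479). Mad2l1 (chr6:66535390-66547220, plus strand) encodes the spindle checkpoint protein that holds Cdc20 inactive, and had 19.2, 9.86, 22.1 and 18.2 TPM with anti-PD1, against 34.5, 31.9 and 41.6 TPM in controls. Vorinostat libraries had 22.9, 36.9, 40.6 and 23.7 TPM and combination libraries 31.3, 19.2, 37.4 and 30.2 TPM. All 4 anti-PD1 libraries were below the lowest control and the lowest vorinostat library. Mad2l1 fell by 1.06 (SE 0.28, adjusted p = 0.0481). The differences of these 4 members were not larger than those of the other members, whose median was as large. Their standard errors, 0.25 to 0.40, lay at the low end of the members' range, and combination library 2 was less far below its group in these 4 than in most members.

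**Figure D3:**
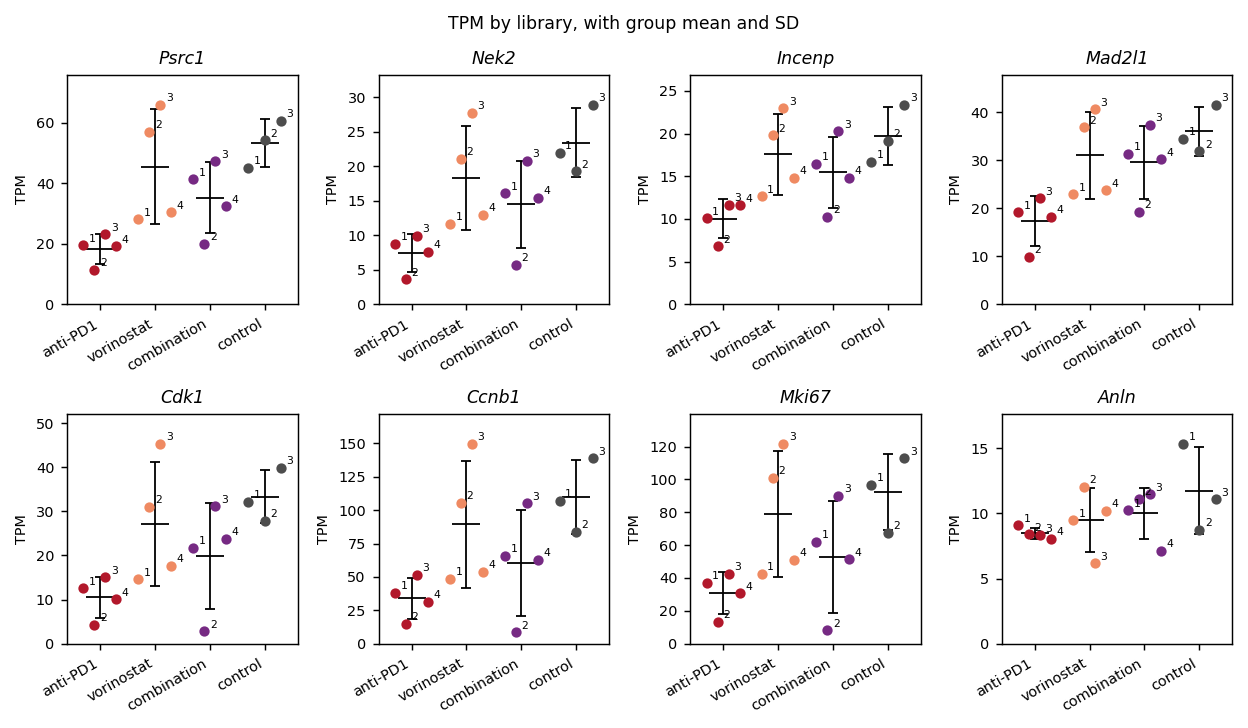
TPM by library for 8 members, with the 4 groups on the horizontal axis and TPM from 0 on the vertical axis. Points are libraries with their numbers, and bars give the group mean and SD. In all but Anln the anti-PD1 points lie below every control point, and combination library 2 lies far below the rest of its group in Cdk1, Ccnb1 and Mki67.

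Among cyclins, their kinase and the mitotic entry gene Cdca3, 0 of 5 members passed, with a median difference of -1.60 and a lowest adjusted p of 0.0733. Ccnb1, cyclin B1 (chr13:100778650-100786570, minus strand), had 38.04, 14.9, 51.5 and 31.2 TPM with anti-PD1, against 107, 83.9 and 139 TPM in controls. It had 48.7, 106, 149.8 and 53.9 TPM with vorinostat and 65.7, 8.38, 105 and 62.99 TPM with the combination. The highest anti-PD1 library was below the lowest control, and combination library 2 was the lowest of all 15. The difference for Ccnb1 was -1.76 (SE 0.69, adjusted p = 0.102), the lowest of this role. Cdk1, the kinase that cyclin B activates (chr10:69335146-69352938, minus strand), had 12.5, 4.29, 15.1 and 10.03 TPM with anti-PD1, against 32.1, 27.9 and 39.9 TPM in controls. Vorinostat libraries had 14.6, 31.1, 45.3 and 17.7 TPM and combination libraries 21.7, 2.80, 31.1 and 23.8 TPM. Anti-PD1 and control libraries were apart for Cdk1, whereas vorinostat libraries reached above and below the controls. Its difference was -1.68 (SE 0.63, adjusted p = 0.0945). Ccnb2 had -1.49, the difference nearest 0 of this role.

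Of 5 other mitotic kinases, Nek2 fell and 4 did not pass. Aurka, the Aurora kinase of the spindle poles (chr2:172356190-172370535, minus strand), had 6.19, 2.58, 8.29 and 5.75 TPM with anti-PD1, against 13.8, 14.4 and 22.5 TPM in controls. It had 7.54, 16.2, 22.9 and 8.91 TPM with vorinostat and 11.4, 3.43, 17.5 and 10.3 TPM with the combination. The 4 anti-PD1 libraries were below the 3 controls, and the difference was -1.46 (SE 0.47, adjusted p = 0.0688). Plk1, the Polo-like kinase that drives entry into mitosis and spindle assembly (chr7:122159439-122169873, plus strand), had 11.7, 4.595, 13.04 and 10.5 TPM with anti-PD1, against 23.97, 22.03 and 35.4 TPM in controls. Vorinostat libraries had 12.1, 27.5, 37.1 and 15.7 TPM and combination libraries 19.4, 3.74, 27.02 and 15.8 TPM. The groups of anti-PD1 and control did not overlap, with a difference of -1.41 (SE 0.54, adjusted p = 0.0968). Pbk, a kinase active in mitotic cells, had the lowest difference of this role (-1.63, SE 0.69) and Melk, another cell-cycle kinase, the one nearest 0 (-0.85, SE 0.30).

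Of the 6 members of the spindle checkpoint and the anaphase-promoting complex, Mad2l1 fell and 5 did not pass, with a median of -1.41. Bub1, a checkpoint kinase at the kinetochore (chr2:127801122-127831865, minus strand), had 3.95, 1.29, 4.50 and 3.63 TPM with anti-PD1, against 9.54, 8.19 and 13.2 TPM in controls. It had 4.94, 9.87, 13.9 and 5.57 TPM with vorinostat and 7.47, 0.579, 9.93 and 7.05 TPM with the combination. Bub1 was lower in every anti-PD1 library than in every control (difference -1.43, SE 0.57, adjusted p = 0.104). Cdc20, the activator of the complex (chr4:118432901-118437352, minus strand), had 33.2, 14.5, 52.6 and 30.9 TPM with anti-PD1, against 73.6, 71.5 and 107 TPM in controls. Vorinostat libraries had 39.8, 91.1, 132 and 46.1 TPM and combination libraries 63.6, 12.3, 115 and 66.9 TPM. Anti-PD1 libraries were all below the controls for Cdc20, and vorinostat and combination libraries each reached above the highest control. Ube2c, the ubiquitin-conjugating enzyme of the complex (chr2:164769898-164778822, plus strand), had 17.1, 7.16, 26.997 and 16.98 TPM with anti-PD1, against 39.6, 40.4 and 65.9 TPM in controls. With vorinostat it had 23.4, 50.9, 78.1 and 26.6 TPM and with the combination 32.4, 4.35, 58.3 and 32.5 TPM. The differences between anti-PD1 and control were -1.43 (SE 0.64) for Cdc20 and -1.55 (SE 0.69) for Ube2c, and neither passed.

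Among 7 centromere and kinetochore members 0 passed, with a median of -1.39. Cenpa, the histone variant that marks the centromere (chr5:30666777-30674830, plus strand), had 25.3, 9.70, 30.8 and 32.7 TPM with anti-PD1, against 43.6, 43.3 and 73.6 TPM in controls. It had 29.3, 55.4, 64.6 and 32.9 TPM with vorinostat and 42.9, 10.7, 59.3 and 34.2 TPM with the combination. Its anti-PD1 and control libraries were apart. Ndc80, of the complex that grips microtubules (chr17:71496100-71526857, minus strand), had 2.35, 0.910, 2.74 and 1.75 TPM with anti-PD1, against 6.25, 4.13 and 6.90 TPM in controls. Vorinostat libraries had 3.37, 5.32, 7.47 and 2.56 TPM and combination libraries 3.91, 0.553, 4.47 and 3.52 TPM. For Ndc80 the anti-PD1 libraries lay below the controls and combination library 2 below all other libraries. The differences between anti-PD1 and control were -1.17 (SE 0.52) for Cenpa and -1.22 (SE 0.41) for Ndc80. Cenpf, a kinetochore protein made late in the cell cycle, had the lowest difference of all 48 members (-1.83, SE 0.61, adjusted p = 0.0747). Spc24, another subunit of the Ndc80 complex, had 15.6, 4.61, 11.9 and 14.7 TPM with anti-PD1, against 14.9, 16.8 and 29.9 TPM in controls. These 2 groups overlapped for Spc24, in which anti-PD1 library 1 was above control library 1, and the difference was -0.82 (SE 0.50, adjusted p = 0.253). Its partners Nuf2 (-1.44, SE 0.41) and Spc25 (-1.39, SE 0.59) had values nearer to those of Ndc80.

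In the chromosomal passenger complex, which corrects faulty attachments, Incenp fell and the other 3 members did not pass. Aurkb, its kinase (chr11:69045647-69051664, plus strand), had 12.004, 5.37, 16.1 and 14.04 TPM with anti-PD1, against 32.9, 28.8 and 39.7 TPM in controls. It had 17.1, 32.8, 39.9 and 18.1 TPM with vorinostat and 24.3, 3.30, 34.4 and 23.9 TPM with the combination. All anti-PD1 libraries were below all controls for Aurkb (-1.51, SE 0.59, adjusted p = 0.102). Birc5, which encodes survivin (chr11:117849251-117855743, plus strand), had 17.5, 7.88, 20.8 and 15.4 TPM with anti-PD1, against 40.5, 35.97 and 53.8 TPM in controls. Vorinostat libraries had 22.2, 42.4, 56.7 and 24.7 TPM and combination libraries 29.5, 9.18, 39.7 and 26.7 TPM. The 2 groups did not overlap for Birc5 either (-1.49, SE 0.45, adjusted p = 0.0602).

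None of 8 kinesins, the motor proteins of the spindle, passed, and their median was -1.29. Kif11, the motor that pushes the spindle poles apart (chr19:37376403-37421859, plus strand), had 6.13, 2.43, 7.36 and 5.59 TPM with anti-PD1, against 15.8, 12.4 and 19.7 TPM in controls. It had 7.81, 17.3, 20.3 and 8.34 TPM with vorinostat and 10.99, 2.33, 15.02 and 8.56 TPM with the combination. Kif20b, a motor of the last step of cell separation (chr19:34922361-34975745, plus strand), had 2.28, 0.862, 2.93 and 1.88 TPM with anti-PD1, against 5.59, 4.66 and 7.04 TPM in controls. For both motors every anti-PD1 library was below every control, with differences of -1.46 (SE 0.49) and -1.22 (SE 0.39). Kif20b had 3.01, 5.45, 7.68 and 2.86 TPM with vorinostat and 3.77, 0.903, 5.11 and 3.85 TPM with the combination. The lowest difference among kinesins was that of the microtubule depolymerase Kif2c (-1.49, SE 0.53) and the one nearest 0 that of Kif15 (-1.04, SE 0.35).

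Of 8 other spindle proteins Psrc1 fell and 7 did not pass, with a median of -1.50. Tpx2, which activates Aurka and starts microtubules near chromosomes (chr2:152847964-152895321, plus strand), had 8.25, 3.05, 10.5 and 6.85 TPM with anti-PD1, against 19.3, 15.9 and 25.5 TPM in controls. It had 9.5997, 20.6, 28.9 and 11.8 TPM with vorinostat and 12.8, 2.76, 20.5 and 13.2 TPM with the combination. The anti-PD1 and control libraries were apart for Tpx2, whose difference of -1.45 (SE 0.53) was the one nearest 0 of this role. The spindle protein Ckap2 had the lowest (-1.66, SE 0.67). The span of Prc1, which bundles the midzone of the spindle, lies wholly within that of a gene on the opposite strand, Rccd1, and the libraries were made with a kit that does not mark strand, so that its reads may be shared. In all, 8 members overlap another protein-coding gene and 24 overlap no annotated gene.

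The 3 cytokinesis members differed among themselves. Racgap1, of the complex that positions the cleavage furrow (chr15:99620496-99651656, minus strand), had 13.3, 7.53, 19.01 and 13.6 TPM with anti-PD1, against 25.6, 24.6 and 32.5 TPM in controls. It had 15.8, 27.3, 33.6 and 15.8 TPM with vorinostat and 18.4, 9.16, 26.5 and 18.3 TPM with the combination. Racgap1 followed the other members, with no overlap between anti-PD1 and control (-1.04, SE 0.35, adjusted p = 0.0759), as did the furrow regulator Ect2 (-1.43, SE 0.53). Anln, the furrow scaffold anillin, which is also a protein of oligodendrocyte myelin (chr9:22332012-22389188, minus strand), had 9.09, 8.39, 8.32 and 8.05 TPM with anti-PD1, against 15.3, 8.77 and 11.1 TPM in controls. Vorinostat libraries had 9.46, 12.04, 6.16 and 10.2 TPM and combination libraries 10.3, 11.1, 11.5 and 7.14 TPM. Anln varied far less than the others and its groups overlapped (-0.40, SE 0.21, adjusted p = 0.195). The mean of log2(TPM + 1) of 6 oligodendrocyte genes was 6.03, 6.75, 6.003 and 5.82 with anti-PD1, 6.28, 5.97, 4.35 and 6.19 with vorinostat, 5.84, 6.15, 5.88 and 5.24 with the combination and 6.28, 5.28 and 5.07 in controls. It was lowest in vorinostat library 3, the library with the least Anln, and the part of oligodendrocyte RNA in the value of Anln was not tested.

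The 2 chromosome proteins had some of the largest differences and did not pass. Mki67, the antigen of the Ki-67 stain that coats mitotic chromosomes (chr7:135689784-135716361, minus strand), had 36.9, 13.3, 42.3 and 30.7 TPM with anti-PD1, against 96.7, 67.6 and 113 TPM in controls. It had 42.4, 101, 122 and 51.1 TPM with vorinostat and 62.1, 8.19, 90.1 and 51.3 TPM with the combination. The highest anti-PD1 library was below the lowest control, while vorinostat library 3 and combination library 2 were the extremes of all 15. Top2a, the topoisomerase that untangles sister chromatids (chr11:98992943-99024189, minus strand), had 29.9, 11.3, 38.3 and 26.7 TPM with anti-PD1, against 79.7, 58.3 and 85.6 TPM in controls. Vorinostat libraries had 39.3, 79.1, 100.2 and 40.98 TPM and combination libraries 54.6, 6.55, 78.7 and 56.4 TPM. The same libraries were highest and lowest for Top2a. The difference for Mki67 was -1.64 (SE 0.66) and for Top2a -1.56 (SE 0.67, adjusted p = 0.125).

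At equal brain content the difference between anti-PD1 and control was gone from the middle of the list. With brain content as a further term of the same limma fit, 0 of 48 members passed in either direction, beside 0.242% of all genes, and 1, Anln, had an unadjusted p below 0.05, beside 15.6%. The median difference was -0.00, against -0.01 for all genes, with 24 members below 0 and 24 above, from -0.88 (Anln) to 0.47 (Spc24). Psrc1 had -0.54 (SE 0.29), Nek2 -0.42 (SE 0.36), Mad2l1 -0.27 (SE 0.26) and Incenp -0.23 (SE 0.22). These 4 stayed below 0 but within 2 standard errors of it, whereas Cdk1 (0.10, SE 0.59) and Mki67 (0.05, SE 0.68) lay near 0 beside their standard errors. Without combination library 2 the median at equal brain content was -0.41 and 0 members passed.

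The fit uses the relation of each member with brain content inside the groups. That relation was steep, with 47 of 48 members lower (beside 31.9% of all genes) and 1 higher (beside 16.5%) as brain content rose, and a median slope of -1.21 log2 units per unit of brain content, against -0.10 for all genes. Racgap1 had the smallest p, with a slope of -0.90 (SE 0.17, adjusted p = 0.000982), followed by Kif18a (-0.90, SE 0.18), Dlgap5 (-1.20, SE 0.23), Kif20b (-0.97, SE 0.19) and Aurka (-1.17, SE 0.24). Next in p came Cdc20 (-1.57, SE 0.33), Psrc1 (-0.82, SE 0.17), Kif22 (-0.97, SE 0.20), Cdca8 of the passenger complex (-1.22, SE 0.26) and Cdca3 (-1.29, SE 0.28). Anln rose with brain content, with a slope of 0.41 (SE 0.14, adjusted p = 0.0288), and did not pass with a list of 15 other neuronal genes in place of brain content (adjusted p = 0.145). With the replicate number as a block 10 of the 48 slopes passed (share of all genes not given here). Aurka, Cdc20, Kif22, Cdca8 and Anln then had adjusted p-values of 0.0501 to 0.0784. By correlations in these data, the numbers were treated as pairs for only 2 of the 4 groups. The median slope was -0.84 without combination library 2, and 48 slopes passed. The 5 neuronal genes were chosen with results of these data known, and 3 of them rose with anti-PD1 themselves by the fit without the covariate. They were Gad1 (1.46, SE 0.29, adjusted p = 0.0267), Gad2 (1.79, SE 0.48, adjusted p = 0.0493) and Grin1 (0.99, SE 0.26, adjusted p = 0.0479), and the 5 together summed to between 231 and 477 TPM with anti-PD1, against 139 to 206 TPM in controls. Since brain content did not overlap between the 2 groups, its part in the difference and the part of the antibody or the vehicle cannot be told apart.

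**Figure D4:**
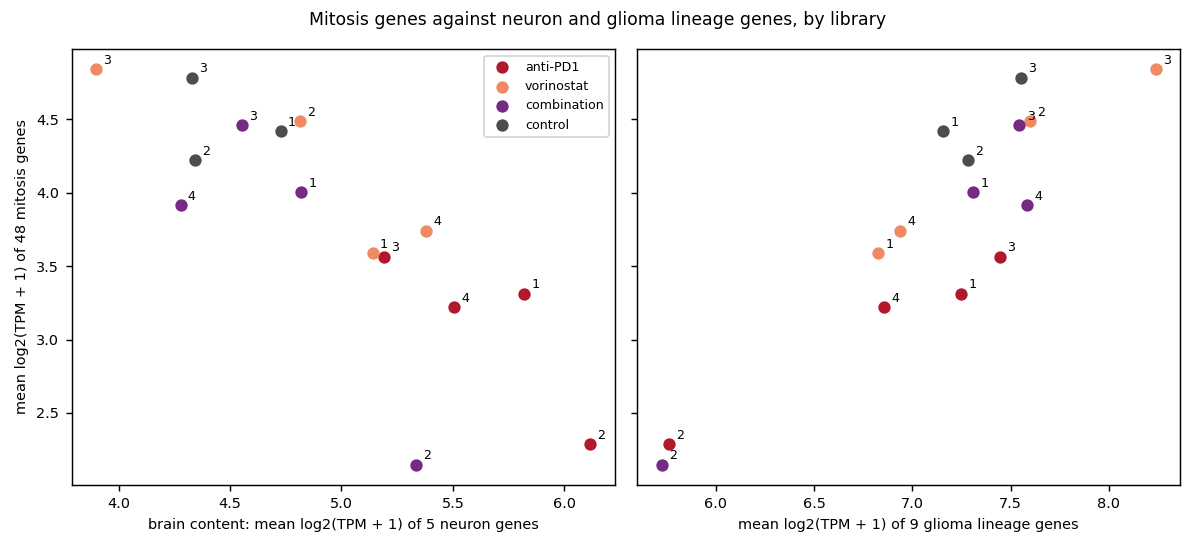
Mean log2(TPM + 1) of the 48 members (vertical axis) against brain content (left) and against the mean log2(TPM + 1) of 9 glioma lineage genes (right), with 1 numbered point per library and colours for groups. On the left the anti-PD1 points lie at 5.19 to 6.12, right of all controls at 4.33 to 4.73. On the right anti-PD1 points 1 and 3 share the range of the controls and lie below them.

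A second covariate gave another value. It was added after the data had been seen, and is the library mean of log2(TPM + 1) of 9 genes of the oligodendrocyte precursor lineage that mark these gliomas (Olig1, Olig2, Pdgfra, Sox10, Nkx2-2, Cspg4, Bcan, Vcan and Ptprz1). This mean was 7.25, 5.76, 7.44 and 6.86 with anti-PD1, 6.82, 7.60, 8.24 and 6.94 with vorinostat, 7.31, 5.72, 7.55 and 7.58 with the combination and 7.16, 7.28 and 7.55 in controls. Anti-PD1 libraries 1 and 3 lay within the range of the controls, so that this measure overlapped between the 2 groups where brain content did not. At equal glioma lineage level 45 of the 48 members were lower with anti-PD1 than in controls, beside 14% of all genes, and Cenpa, Spc24 and Anln did not pass. The median difference was -0.92, against -0.10 for all genes, from -1.24 (Cenpf) to -0.34 (Spc24). Nek2 had -1.18 (SE 0.11, adjusted p = 0.000431), Nuf2 -1.04 (SE 0.13, adjusted p = 0.00107), Psrc1 -1.21 (SE 0.15, adjusted p = 0.0012) and Birc5 -1.05 (SE 0.14, adjusted p = 0.00124). Cdk1 had -1.05 (SE 0.19) and Mki67 -1.003 (SE 0.26). The count stayed between 36 and 46 when 1 library was left out (shares of all genes not given here). Inside the groups 47 members rose with the glioma lineage mean, beside 32.8% of all genes, with a median slope of 0.98, and Anln had -0.15 (SE 0.11). The size of the difference at equal tissue makeup thus depended on which measure of makeup was used, with a median near 0 for brain content and -0.92 for the glioma lineage.

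**Figure D5:**
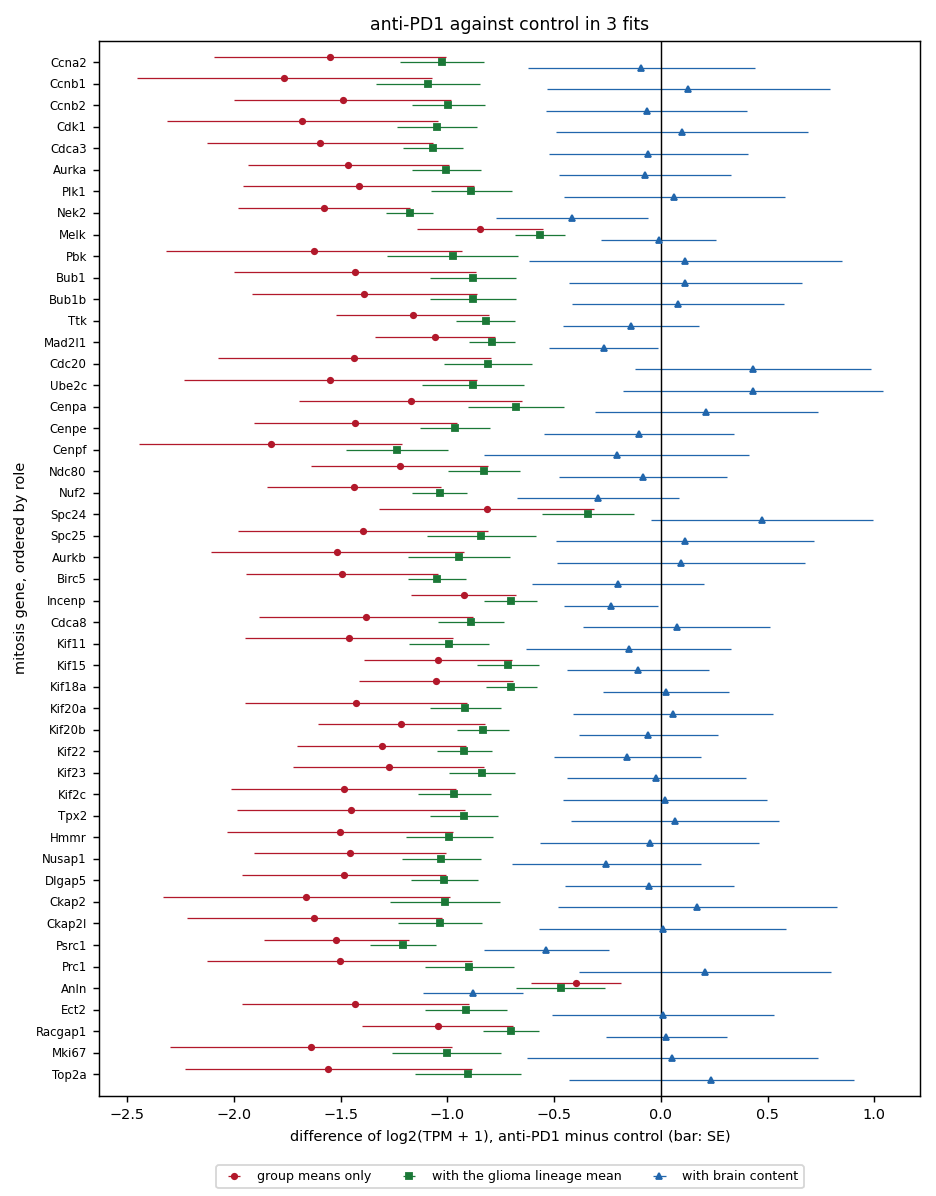
Difference in log2(TPM + 1), anti-PD1 minus control, with its SE for each of the 48 members in order of role, from 3 fits. Circles (group means only) have a median of -1.44, squares (with the glioma lineage mean) of -0.92 and triangles (with brain content) of -0.00, and the squares have the narrowest bars in all 48 members.

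Vorinostat alone, which was compared with control to see the effect of the inhibitor, gave no member that passed. By limma 0 of 48 rose and 0 fell, beside 0.00516% of all genes that passed in either direction, and 0 had an unadjusted p below 0.05, beside 2.52% of all genes. In 0 members was every vorinostat library below every control, beside 3.12% of all genes. The median difference was -0.31, against -0.05 for all genes, from -0.46 (Cdca3) to 0.06 (Spc24). The 3 of smallest p were Anln (-0.28, SE 0.21), Nek2 (-0.40, SE 0.40) and Kif22, a motor that binds chromosome arms (-0.37, SE 0.40), each with an adjusted p of 1. The median was -0.56 without vorinostat library 3 and -0.12 without vorinostat library 1. The group was split. Libraries 2 and 3 had member means of 4.49 and 4.84, within and above the range of the controls (4.22 to 4.78), while libraries 1 and 4 had 3.59 and 3.74. In Ccnb1 that was 106 and 149.8 TPM, against 48.7 and 53.9 TPM in the other 2. Brain content ran the other way, with 4.81 and 3.90 in libraries 2 and 3 and 5.14 and 5.38 in libraries 1 and 4. At equal brain content the median difference from control was 0.06 (-0.03 without combination library 2), and 0 members passed, beside 0.00516% of all genes. With the glioma lineage mean as covariate it was -0.38, with 0 members called, beside 0.00516% that were lower. In that fit 25 of the 48 members had an unadjusted p below 0.05 (share of all genes not given here), and the lowest adjusted p was 0.442.

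The combination was compared with control, and with each agent given alone. Against control, 0 members passed in either direction, beside 0.0206% of all genes, and 0 had an unadjusted p below 0.05, beside 5.76%. That last count was 32 without combination library 3 (share of all genes not given here). The median difference was -0.88, against -0.03 for all genes. Every combination library was below every control in 1 member, beside 4.08% of all genes. It was Spc25, with 15.4, 1.49, 18.7 and 13.6 TPM with the combination, against 23.4, 18.8 and 25.9 TPM in controls. The 3 of smallest p were Ndc80 (-0.84, SE 0.41, adjusted p = 0.911), Spc25 (-1.18, SE 0.59) and Cdca3, a gene of mitotic entry (-1.06, SE 0.53). With combination library 2 left out, Ndc80 had -0.43, Spc25 -0.49 and Cdca3 -0.55. Without combination library 2 the median was -0.38, and without combination library 3 it was -1.18. At equal brain content the median was -0.54, with 0 members called, beside 0.139% of all genes, and -0.30 without combination library 2. At equal glioma lineage level it was -0.60, with 0 called, beside 0.0206% that were lower. In that fit 42 of the 48 members had an unadjusted p below 0.05 (share of all genes not given here), and the lowest adjusted p was 0.0751.

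Combination library 2 was low in most members but not alike in all. In Pbk it had 2.68 TPM, against 29.2 to 44.6 TPM in the other 3 combination libraries, and in Bub1 0.579 TPM, against 7.05 to 9.93 TPM. In Mad2l1 it had 19.2 TPM, against 30.2 to 37.4 TPM, and in Incenp 10.2 TPM, against 14.9 to 20.3 TPM. The order of these low values differed from that in anti-PD1 library 2, the other low library, since combination library 2 was the higher of the pair in 20 members and the lower in 28. It was higher in Psrc1, with 20.02 TPM against 11.5 TPM, and lower in Pbk, with 2.68 TPM against 8.41 TPM. Its brain content of 5.33 was the highest of its group but within the range of the anti-PD1 and vorinostat groups, and its glioma lineage mean of 5.72 was the lowest of all 15 libraries.

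Against anti-PD1 alone the combination had a difference above 0 in all 48 members, with a median of 0.54 beside 0.13 for all genes, and 0 passed, beside 0.0155% of all genes. At an unadjusted p of 0.05, 4 members were higher, beside 17.7% of all genes. The 3 of smallest p were Mad2l1 (0.75, SE 0.26, adjusted p = 0.167), Psrc1 (0.88, SE 0.31, adjusted p = 0.173) and Incenp (0.57, SE 0.23, adjusted p = 0.187). Without combination library 2 the median was 1.06 and 47 members were higher at an unadjusted p of 0.05, beside 23.9% of all genes, while 0 passed the adjusted test, and without anti-PD1 library 2 the median was 0.25.

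Same-numbered libraries of the combination and anti-PD1 groups deviated together, and the combination was the higher in all 4 pairs in 19 members, beside 33.1% of all genes. The labels do not state this pairing, which was taken from correlations in these data. Standard errors and p-values of a fit with pairs chosen in this way may be too small. The paired values below are therefore description only. In a limma fit of these 8 libraries alone with the replicate number as a block, added after the data had been seen, 13 members rose with the combination and 0 fell, beside 14.7% of all genes that rose. The 3 of smallest p rose, Psrc1 by 0.88 (SE 0.09, adjusted p = 0.0151), Mad2l1 by 0.75 (SE 0.08, adjusted p = 0.0151) and Nek2 by 0.82 (SE 0.10, adjusted p = 0.0153). The other 10 were Incenp, Aurka, Nuf2, Birc5, Kif22, Racgap1, Nusap1, Spc24, Cdca3 and Cdca8. The count depended on single pairs. It was 0 without pair 2 (beside 0.00562% of all genes that rose) and 3 without pair 1 (beside 3.35%). It was 4 without pair 4 (beside 3.87%) and 10 without pair 3 (beside 16.3%), so that the share of all genes moved too. With brain content or the glioma lineage mean added to the paired fit 0 members passed, beside 0% of all genes that rose in either case.

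In the unpaired fit with brain content as a covariate the sign of the difference between combination and anti-PD1 turned, to a median of -0.52, with 0 members called, beside 0% of all genes, and without combination library 2 it was 0.10. At equal glioma lineage level 8 members were higher, beside 13.2% of all genes, led by Mad2l1 (0.64, SE 0.10) and Nek2 (0.65, SE 0.10). These 8 are 16.7% of the members, and the count was 3 without anti-PD1 library 1, 4 without combination library 2, 5 without combination library 3 and between 6 and 10 with another library left out. By voom or by median-of-ratios scaling it was 3, and shares of all genes in these alternatives are not given here. Against vorinostat alone the combination gave 0 called members, beside 0.0103% of all genes, with a median of -0.57 that came to -0.05 without combination library 2. The 3 of smallest p were Pbk (-1.08, SE 0.64), Spc25 (-0.89, SE 0.54) and Bub1b (-0.70, SE 0.49), each with an adjusted p of 1. With combination library 2 left out, Pbk had -0.25, Spc25 -0.20 and Bub1b -0.17. At equal brain content the median was -0.64, with 0 members called, beside 0.0258% of all genes, and -0.28 without combination library 2.

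Between the agents given alone, the difference (anti-PD1 minus vorinostat) was below 0 in all 48 members. The median was -1.12, against -0.09 for all genes, 0 members passed, beside 0.00516% of all genes, and 33 were lower at an unadjusted p of 0.05, beside 16.8%. That last count was 5 without anti-PD1 library 2, 6 without vorinostat library 3, 8 without vorinostat library 2, 20 without anti-PD1 library 4 and 47 without combination library 2. Shares of all genes with these libraries left out are not given here, so a move of the members is not separated from a move of all genes. In 20 members every anti-PD1 library was below every vorinostat library, beside 5.33% of all genes. The 3 of smallest p were Psrc1 (-1.21, SE 0.31, adjusted p = 0.09), Incenp (-0.74, SE 0.23, adjusted p = 0.111) and Nek2 (-1.18, SE 0.37, adjusted p = 0.117). With brain content as a covariate the median was -0.09 with 0 members called, beside 0.0103% of all genes, and -0.35 without combination library 2. With the glioma lineage mean as covariate it was -0.52 with 11 members called lower, beside 2.68% of all genes. The count was 4 by voom and 5 by median-of-ratios scaling or with no filter on low values. That count ran between 0 and 18 with 1 library left out, lowest without vorinostat library 1 and highest without combination library 3. Shares of all genes in these alternatives are not given here.

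The interaction asks whether the combination departed from the sum of the 2 agents on the log2 scale, and is the combination minus anti-PD1 minus vorinostat plus control. It was above 0 for all 48 members, with a median of 0.85 against 0.18 for all genes, and 0 passed, beside 0.0103% of all genes. At an unadjusted p of 0.05, 4 members were above 0, beside 12.4% of all genes. Mad2l1 (0.996, SE 0.38, adjusted p = 0.271), Psrc1 (1.19, SE 0.46, adjusted p = 0.271) and Incenp (0.75, SE 0.33, adjusted p = 0.299) had the smallest p. Without combination library 2 the median was 1.37 and 45 members were above 0 at an unadjusted p of 0.05, beside 18.2% of all genes. With brain content as a covariate the median was -0.61, with 0 members called, beside 0.00516% of all genes, and without combination library 2 it lay above 0, at 0.15. At equal glioma lineage level 23 members had a positive interaction, beside 11.5% of all genes, with Nek2 at 1.10 (SE 0.15, adjusted p = 0.00496), and the count ran between 8 and 29 with 1 library left out, lowest without control library 3 and highest without combination library 2. It was 3 by voom, 5 by median-of-ratios scaling, 12 with no filter on low values and 15 with the replicate block. Shares of all genes in these alternatives, and with 1 library left out, are not given here. The comparisons of anti-PD1 with control, of the combination with anti-PD1 and of the interaction share the anti-PD1 libraries, so that they are not separate evidence.

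Other genes of the cell cycle were counted from lists of the pathway. Of 69 further mitosis genes, 7 fell with anti-PD1 and 0 rose, beside the 3.52% of all genes that fell, with a median of -1.11. The centromere gene Cenpw (-0.68, SE 0.13, adjusted p = 0.0254), the spindle gene Spag5 (-0.998, SE 0.22) and the phosphatase Cdc25b, which activates Cdk1 (-0.71, SE 0.17), had the smallest p. Of 17 regulators of mitosis genes 1 fell, Lin9 of the MuvB core (-0.85, SE 0.23, adjusted p = 0.049). Foxm1, the activator that binds with this core, had 15.7, 6.58, 18.3 and 14.3 TPM with anti-PD1, against 35.9, 31.9 and 45.2 TPM in controls. Its libraries did not overlap, and its difference was -1.46 (SE 0.58, adjusted p = 0.105). Mybl2, which encodes B-Myb, had -0.90 (SE 0.31) and E2f1, an activator of S phase genes, -0.26 (SE 0.20). Of 38 genes of DNA replication 6 fell with anti-PD1 and 0 rose, with a median of -0.92. Smallest in p were the cyclin Ccne2 (-0.63, SE 0.14, adjusted p = 0.0336), the primase gene Prim1 (-1.08, SE 0.27) and Rpa1, of the protein that coats single strands (-0.44, SE 0.12). Of 13 genes of G1 and cell cycle arrest 0 passed, and the inhibitor Cdkn1a had -0.09 (SE 0.54, adjusted p = 0.913). With vorinostat Cdkn1a had -0.23 (SE 0.54, adjusted p = 1), and 0 genes of these 4 lists passed against control with vorinostat or with the combination. With brain content as a covariate 0 genes of the 4 lists passed between anti-PD1 and control.

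Markers of other cells moved in the same comparison. Of 6 fibroblast and pericyte genes 3 fell with anti-PD1, beside 3.52% of all genes, and the 6 summed to between 26.5 and 41.5 TPM with anti-PD1, against 65.4 to 148 TPM in controls. Of 8 T cell genes 4 passed the filter on low values and 1 of these rose, beside 1.77% of all genes, and the 8 summed to between 6.32 and 14.9 TPM with anti-PD1, against 2.69 to 3.65 TPM in controls, with Cd3e, Cd8a and Cd2 at 0 in 1 or 2 libraries. Of 6 B and plasma cell genes 4 passed the filter and 0 of these the test, with Ms4a1 at 0 in 7 libraries. The 6 summed to between 198 and 931 TPM with anti-PD1, against 18.2 to 183 TPM in controls. Most of this sum was Igkc, with group means of 456 TPM with anti-PD1 and 77.2 TPM in controls. The B cell genes Cd79a (0.54 and 0.37 TPM) and Ms4a1 (0.031 TPM in both) were low in both groups. Activated lymphocytes and fibroblasts can divide too. The 9 glioma lineage genes summed to between 1436 and 5557 TPM with anti-PD1, against 4410 to 6152 TPM in controls, and 0 of them passed. The part of these cells in the values of the 48 members was not tested.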

How the data were processed

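RNA of mouse brain tumours was sequenced in 15 libraries of 4 groups, anti-PD1, vorinostat and their combination (n = 4 each) and control (n = 3). The authors deposited 1 table of TPM per gene symbol. Per the submitters' processing notes the tools were FastQC, HISAT2, StringTie and DESeq2 with the mm10 build. Their versions, and the meaning of a marker "adj" in the table's name, are not given in the sources used here. The TPM values deposited by the authors gave back whole reads for nearly all genes when each was divided by what 1 read was worth, which is how depths of 82.2 M to 163.5 M reads were obtained. The library kit does not mark strand, and members that overlap another gene may share reads with it. Gene positions are from GENCODE vM21 (mm10). The precision of a group mean is limited by its 3 or 4 libraries rather than by depth.

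Values were analysed as log2(TPM + 1) for the 19390 symbols that reached 1 TPM in 3 or more libraries. The test was limma 3.58.1 in R 4.3.3 (lmFit, contrasts.fit and eBayes with trend), with 1 mean per group and 11 residual degrees of freedom, for 7 comparisons, and all adjusted p-values in the text are its Benjamini-Hochberg values over all symbols tested, two-sided. A difference on this scale understates the change of genes of low TPM. The same fit was repeated with brain content as a covariate, and, added after the data had been seen, with the mean of 9 glioma lineage genes (another gene of that list is not reported here). Count models that had been planned were not run, because the deposited unit is TPM, and limma's voom on the recovered reads was run in their place as an alternative. The members and all gene lists were chosen with earlier results of these data known. Named with their change were members past the threshold, or the 3 of smallest p where none passed (10 where more did), the lowest and the highest of each role, and values in every library were given for 20 members fixed by name. In related lists the 3 of smallest p and 4 regulators were named. Replicate numbers were taken from the labels. Same-numbered libraries of the combination and anti-PD1 groups deviated together in each of 4 pairs, with correlations of 0.20 to 0.64. Each other pair of groups had at least 1 correlation below 0.1, although single ones reached 0.55 (anti-PD1 and vorinostat library 3). The numbers were thus treated as pairs only between combination and anti-PD1. This choice was made from these data, and the labels do not state it. A fit of those 8 libraries alone, paired by number, was added after the data had been seen. Other alternatives were another pseudocount, no filter and a stricter one, scaling by median of ratios, only the groups compared, another neuronal list and each library left out. The fits were tested on simulated data. Figures were drawn with matplotlib 3.10.9 in Python 3.11.15, with pandas 2.3.3 and numpy 2.4.6.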

Additional observations from a re-analysis of the deposited data

Results flagged for a closer look

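In 14 of the 150 groups of 4 libraries checked (50 quantities, the 48 members and 2 library means, in each of the 3 groups of 4), the lowest library stood apart. The measure is the gap to the next library as a share of the whole range of the group, set against Dixon's 95% critical value. Chance flags about 1 in 20 groups, and the members of 1 library are not independent of each other. In 10 of the 14 the library was combination library 2. These were the kinases Cdk1 (0.838, with 2.80 TPM, against 21.7, 31.1 and 23.8 TPM in combination libraries 1, 3 and 4), Melk (0.841), Pbk (0.836), Bub1 (0.842) and Aurkb (0.832), the kinetochore members Ndc80 (0.850) and Spc25 (0.856), the spindle members Ckap2 (0.866) and Ckap2l (0.830), and Top2a (0.847). In the other 4 it was anti-PD1 library 2, in Cdca3 (0.864, with 6.73 TPM, against 18.4, 21.4 and 18.5 TPM in anti-PD1 libraries 1, 3 and 4), Nuf2 (0.833), Spc25 (0.862) and the kinesin Kif23 (0.833). Both libraries were low in the glioma lineage mean too, at 5.72 in combination library 2 and 5.76 in anti-PD1 library 2, beside 6.82 to 8.24 in the other 13. The part of tissue makeup in these values was not tested.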

How the results depend on the processing

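The count of 4 members that fell with anti-PD1 against control was 0 with no filter on low values, 0 with brain content as a covariate, 0 with the other neuronal list as covariate, 0 with the replicate block and brain content together and 0 by voom with brain content. It was 1 by median-of-ratios scaling, 1 with only the groups compared and 1 by voom on recovered reads. It was 25 with the replicate block (share of all genes not given here) and 45 with the glioma lineage genes as covariate. With another library left out each time it was 0 to 43. The median difference of -1.44 lay at -0.0013 with brain content, -0.47 with the other neuronal list, -0.21 with the replicate block and brain content and -0.16 by voom with brain content, and at -1.62 to -1.17 with a library left out.

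Between combination and anti-PD1 the count of 0 was 8 with the glioma lineage genes as covariate, and the median of 0.54 was -0.52, -0.23, -0.35 and -0.44 under the same 4 settings. With the replicate block over all 15 libraries that count stayed 0, and with the block over the 8 libraries of these 2 groups alone it was 13, and 0 to 10 without 1 pair. In that paired fit at equal glioma lineage level the 8 members were 0. Between anti-PD1 and vorinostat the count of 0 was 3 with the replicate block and 11 with the glioma lineage genes, and the median of -1.12 was -0.088, -0.24, -0.23 and -0.21. For the interaction the count of 0 was 23 with the glioma lineage genes, and the median of 0.85 was -0.61, -0.0076, -0.39 and -0.49. The 48 called slopes on brain content were 10 with the replicate block. With a library left out the counts were 0 to 1 between anti-PD1 and vorinostat and 47 to 48 for the slopes, and 0 in the other comparisons. Medians with a library left out were -1.34 to -0.83 between anti-PD1 and vorinostat, 0.25 to 1.06 between combination and anti-PD1, -1.18 to -0.38 between combination and control, -0.86 to -0.05 between combination and vorinostat, 0.55 to 1.37 for the interaction and -0.56 to -0.12 between vorinostat and control. The lowest and highest of these medians came with anti-PD1 library 2, vorinostat library 1 or 3 or combination library 2 or 3 left out, and the cause was not tested.

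At equal glioma lineage level the 8 members between combination and anti-PD1 were 3 by voom, 6 with no filter and 3 by median of ratios, the 11 between anti-PD1 and vorinostat were 4, 5 and 5, and the 23 of the interaction were 3, 12 and 5, and 15 with the replicate block. With a library left out these counts were 3 to 10, 0 to 18 and 8 to 29, and 36 to 46 between anti-PD1 and control. Shares of all genes in these alternatives are not given here.

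Of 1278 values of single genes under alternatives, 1122 kept their direction and side of the threshold, 76 no longer passed, 59 passed instead and 21 changed sign. All 21 were differences between anti-PD1 and control below 0 in the fit without a covariate. With brain content they were Ccnb1 0.13, Pbk 0.12, Ube2c 0.43, Spc24 0.47, Aurkb 0.093, Kif2c 0.019, Ckap2 0.17, Tpx2 0.067, Ect2 0.0094, Mki67 0.054 and Top2a 0.24. With the other neuronal list Spc24 had 0.064. With the replicate block and brain content Melk had 0.014, Ube2c 0.056, Spc24 0.27 and Top2a 0.087. By voom with brain content Ube2c had 0.20, Spc24 0.31, Tpx2 0.017, Mki67 0.059 and Top2a 0.25.

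Groups hold 3 or 4 libraries, and brain content does not overlap between anti-PD1 and control, which limits all values at equal brain content. The glioma lineage mean overlaps only in part between these 2 groups, which limits their values at equal glioma lineage level. Fits of count models had been planned and were not run, since the table holds TPM. Depth was not limiting, as the members' lowest value stood on 173 reads.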
